A study of Mus musculus with 12 samples.

Results

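The genes described here encode AMP-activated protein kinase (AMPK) and the proteins that switch it on. They are the 6 subunit genes Prkaa1, Prkaa2, Prkab1, Prkab2, Prkag1 and Prkag2 and the 4 upstream genes Stk11, Strada, Cab39 and Camkk2, 10 of the 23284 genes with a value in the files. They were chosen by function around Prkaa2, which was chosen from these libraries because it rises with Zmiz1. The rise of Prkaa2 is therefore given as a description with no test, and although the other members were not chosen on their own values, the whole set was put together with earlier results of these libraries known.

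AMPK is a heterotrimer that senses a fall in cellular energy. An alpha subunit carries the kinase domain, a beta subunit holds the complex together and binds glycogen, and a gamma subunit binds AMP, ADP or ATP. The alpha subunit becomes active when an upstream kinase phosphorylates its activation loop: LKB1 (the product of Stk11) does so in a complex with the pseudokinase STRAD and the scaffold MO25, and CaMKK2 does so in response to calcium. In T cells the alpha 1 isoform is known as the main catalytic subunit, while alpha 2 is best known from muscle, liver and heart.

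RNA sequencing was done on 12 libraries of 8946, a mouse T cell leukemia line. All cells received a pair of retroviral vectors, an empty MigR1 vector or L1601P (the Notch1 mutant) with GFP, and an empty NGFR vector or Zmiz1 with NGFR, and were sorted as GFP+/NGFR+. Zmiz1 is a PIAS-like transcriptional coactivator, and cleaved Notch1 enters the nucleus and switches on target genes. The 4 groups of 3 libraries are called control (MigR1/NGFR), Zmiz1-titled, Notch1-titled and combined (L1601P/Zmiz1). The labels of the single-vector groups contradict each other: the cell line field reads L1601P/NGFR for the Zmiz1-titled and MigR1/Zmiz1 for the Notch1-titled libraries. Groups follow the titles here, as do the deposited column headers and the levels of Zmiz1 and Notch1 given below. All groups are 1 cell line, the controls also carry both markers, and neither separate cultures nor separate transductions are stated, so a p-value here covers only how much these libraries vary, which may be technical.

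The values are FPKM, fragments scaled to transcript length and to the mapped fragments of the library, so they can be compared between genes per length. Zmiz1 was at 67.7 to 74.4 FPKM in the Zmiz1-titled and 47.6 to 51.0 FPKM in the combined libraries, against at most 0.221 FPKM in the others. Notch1 was at 22.1 to 42.2 FPKM in the Notch1-titled and 33.5 to 37.2 FPKM in the combined libraries, against at most 2.34 FPKM in the others. Ngfr, the mouse gene with the name of the marker, was not matched between groups. It was at 82.8 to 88.9 FPKM in the control and 61.4 to 80.3 FPKM in the Notch1-titled libraries. In the Zmiz1-titled libraries it was at 7.23 to 7.71 FPKM and in the combined ones at 5.62 to 5.66 FPKM. Comparisons that add Zmiz1 thus also differ in Ngfr, whose part was not tested. Each library held 14233 to 14554 genes above 0, and their FPKM summed to 549098 to 606908. Depth is unknown, since the files hold no counts. All 10 T cell markers examined were above 1 FPKM on average in every group. B cell markers summed to at most 0.554 FPKM and hepatocyte markers to at most 0.0490 FPKM in any library. Skeletal muscle markers summed to 21.9 to 33.8 FPKM, nearly all of it Mylpf (21.7 to 33.7 FPKM), a myosin light chain, and myeloid markers to 51.1 to 102 FPKM, nearly all of it Itgam.

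The promoter bases of 3 genes on which the results turn are shown first. For Prkaa2 and for Plpp3, listed in the files under its older symbol Ppap2b and the neighbour described below, the 250 bases before the RefSeq start site are given with every CG dinucleotide in capitals, because these genes moved alike and differ in this feature. The Prkaa2 bases are chr4:105109899-105110148 on the minus strand, and the Plpp3 bases are chr4:105157097-105157346 on the plus strand (GRCm38.p6).
Prkaa2: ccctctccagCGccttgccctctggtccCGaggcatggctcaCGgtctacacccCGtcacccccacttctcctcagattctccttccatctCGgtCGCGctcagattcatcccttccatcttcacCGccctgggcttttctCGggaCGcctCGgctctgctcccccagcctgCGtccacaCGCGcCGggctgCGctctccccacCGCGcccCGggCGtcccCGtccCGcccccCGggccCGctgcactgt
Plpp3: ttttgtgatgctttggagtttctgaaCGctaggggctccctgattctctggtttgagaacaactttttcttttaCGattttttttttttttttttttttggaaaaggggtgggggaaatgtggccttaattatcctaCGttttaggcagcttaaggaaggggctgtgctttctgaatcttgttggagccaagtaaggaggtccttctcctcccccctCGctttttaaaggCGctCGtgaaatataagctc
The Prkaa2 stretch held 24 CG dinucleotides at 70.0% GC, and the Plpp3 stretch held 6 at 42.4% GC. The other alpha gene, Prkaa1, held 45 in the same stretch at 85.2% GC. Over windows of 300 bases (250 before and 50 after the start), all RefSeq promoters had a median of 52.7% GC and 7 CG dinucleotides, while Prkaa2 had 72.7% GC and 35 and Plpp3 had 46.0% GC and 11.

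Prkag2, the member called as higher with the Notch1 mutant, close to the threshold as given below, has 3 RefSeq start sites. One of them holds the core of the RBPJ motif (TGGGAA, searched on both strands), RBPJ being the DNA-binding partner of cleaved Notch. Its 250 upstream bases, chr5:24908510-24908759 on the minus strand, are shown with that core in capitals, where it reads as the reverse complement.
Prkag2: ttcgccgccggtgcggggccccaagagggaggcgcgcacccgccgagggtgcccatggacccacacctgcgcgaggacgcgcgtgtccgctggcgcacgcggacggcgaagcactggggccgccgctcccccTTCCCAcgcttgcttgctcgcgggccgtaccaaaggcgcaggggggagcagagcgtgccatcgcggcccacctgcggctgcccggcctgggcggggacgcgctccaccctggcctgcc
The core began at position -118 from the start site. It was absent from the other 11 member windows, and 25.6% of all 32851 RefSeq promoter windows held it. That share is per window, while Prkag2, shown because it was called, had 3 windows in which to match. The ETS core CCGGAA was found in the windows of Prkab1 and Prkag1 (14.9% of all windows), and the E-box CACGTG (7.15%) and the cyclic AMP response element TGACGTCA (1.79%) in none of the 12 windows of the 10 members. These are matches of letters and not measured binding sites.

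Prkaa2 (chromosome 4, 105029874 to 105109890, minus strand, GENCODE M21 on GRCm38), the alpha 2 catalytic subunit, was the member whose highest level was the largest multiple of its lowest. Prkaa2 was chosen for its rise, so this is no separate result. Its levels were 2.65, 2.06 and 1.83 FPKM in control replicates 1 to 3 and 10.2, 10.9 and 7.81 FPKM in the Zmiz1-titled replicates. They were 2.01, 1.51 and 1.37 FPKM in the Notch1-titled and 5.99, 4.80 and 5.32 FPKM in the combined replicates. Every library with the Zmiz1 vector, by its title, lay above every library without it, and the combined libraries all lay below the Zmiz1-titled ones. The Zmiz1-titled mean was 4.42 times that of the control, and the combined mean 3.29 times that of the Notch1-titled libraries. In RNA from many cells, more transcript per cell and more cells carrying it cannot be told apart.

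On the log2(FPKM + 1) scale, the scale of all differences below, Prkaa2 differed by 1.74 between Zmiz1-titled and control libraries and by 1.28 between combined and Notch1-titled libraries. The pseudocount of 1 understates the change of a gene at this level, and with 0.1 the differences were 2.096 and 1.67. Combined libraries differed from Zmiz1-titled ones by -0.73, and the rise was smaller by 0.46 (interaction -0.46) where the Notch1 mutant was present. These 4 differences use the libraries that chose the gene and carry no test. Zmiz1 itself was lower in the combined libraries (mean 49.3 FPKM) than in the Zmiz1-titled ones (70.8 FPKM), and T cell markers summed to 2825 to 3117 FPKM in the Zmiz1-titled libraries against 3234 to 3898 FPKM in the others; the part of either in the level of Prkaa2 was not tested.

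The effect of the Notch1 mutant alone on Prkaa2 is a different comparison from those that chose the gene, but both of its groups took part in them, so it is not independent of the choice. Its interval and p-value are therefore no independent test. The level was 1.63 ± 0.334 FPKM in Notch1-titled and 2.18 ± 0.422 FPKM in control libraries (mean ± SD, n = 3 each). The difference was -0.27 with a 95% interval of -0.58 to 0.038 (limma adjusted p = 0.338), and 2 of the 3 Notch1-titled libraries lay below all controls. Prkaa2 was therefore not called in this comparison, in which the interval includes both no change and a fall.

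**Figure D1:**
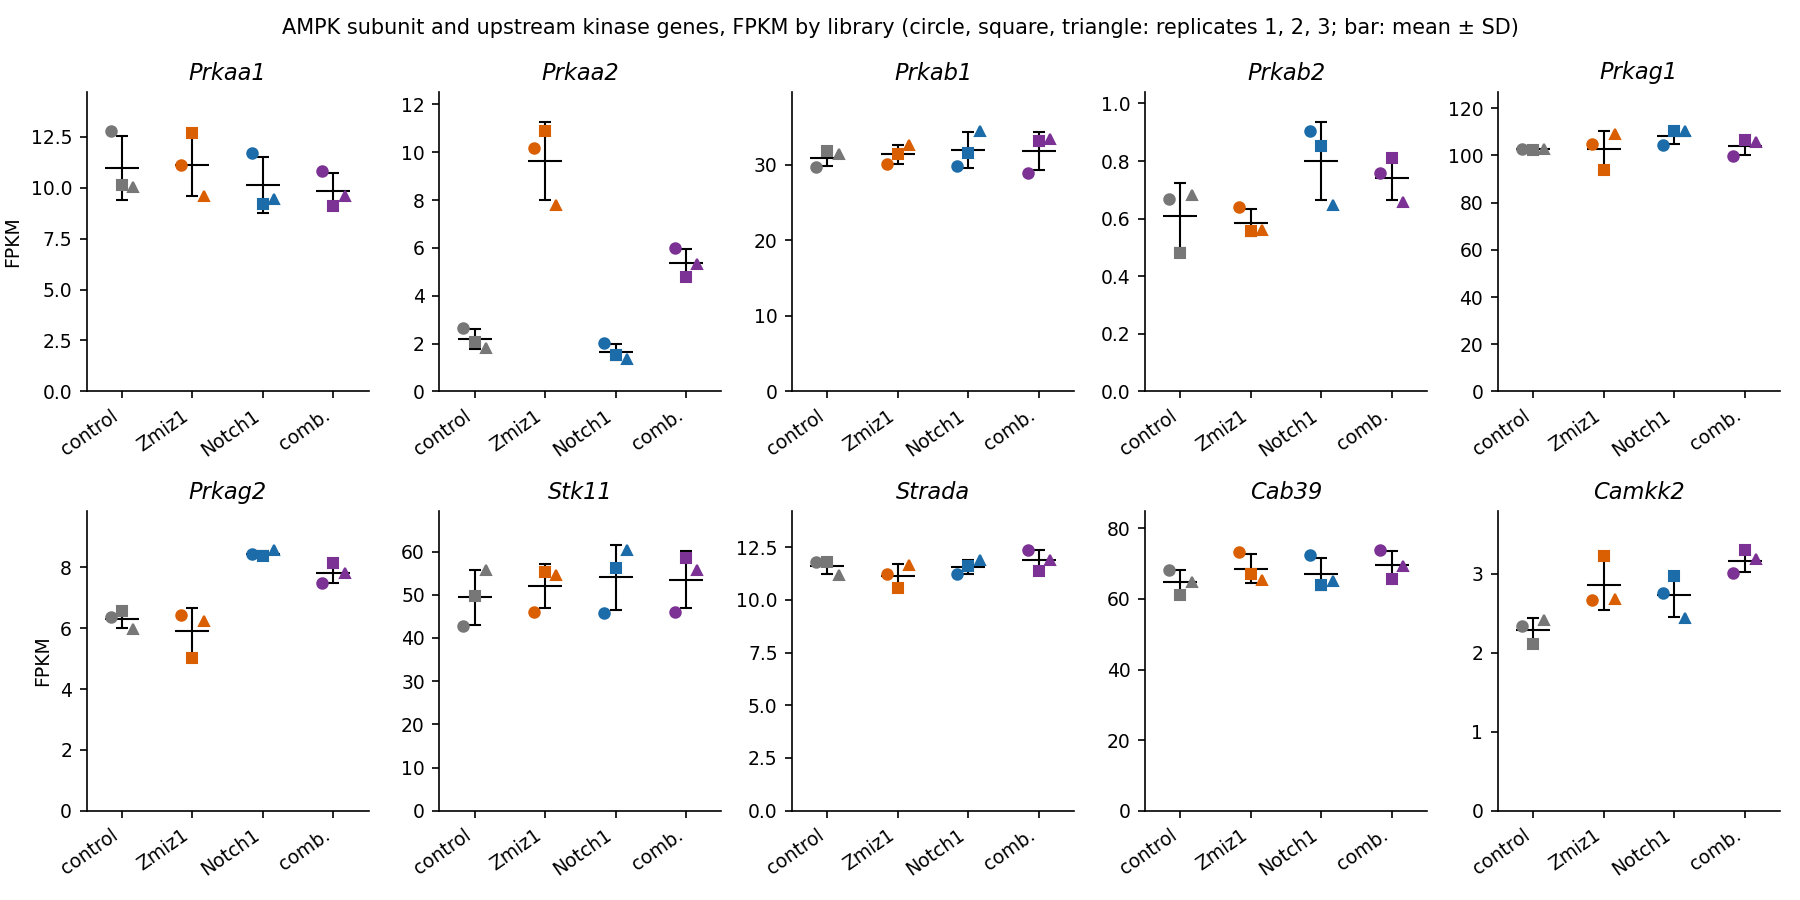
FPKM (linear axis from 0) of the 10 genes in each library, grouped as control, Zmiz1-titled, Notch1-titled and combined (comb.), with symbols for replicates 1, 2 and 3 and bars for the mean and SD of 3 libraries. Prkaa2 is high in the Zmiz1-titled (7.81 to 10.9) and combined (4.80 to 5.99) libraries, Prkag2 is higher in the Notch1-titled and combined libraries (7.50 to 8.56) than in the rest (5.03 to 6.56), and in the other panels the groups lie closer together.

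Prkaa1 (chromosome 15, 5143861 to 5181899, plus strand), the alpha 1 catalytic subunit, did not follow the rise of Prkaa2 between groups. Its levels were 12.8, 10.1 and 10.0 FPKM in the control and 11.1, 12.7 and 9.59 FPKM in the Zmiz1-titled libraries. They were 11.7, 9.20 and 9.46 FPKM in the Notch1-titled and 10.8, 9.11 and 9.58 FPKM in the combined libraries. The 4 groups overlapped. Within groups, Prkaa1 and Prkaa2 were both highest in replicate 1 in 3 of 4 groups. The Zmiz1-titled libraries differed from the control by 0.018 (95% interval -0.26 to 0.29, limma adjusted p = 0.978), and the combined from the Notch1-titled libraries by -0.032 (-0.31 to 0.24, adjusted p = 1.00). The sign of both differences turned when single libraries were left out.

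The balance of the alpha genes shifted with the level of Prkaa2. Prkaa2 supplied 16.5% ± 0.948 of the summed FPKM of Prkaa1 and Prkaa2 in the control libraries and 46.3% ± 1.504 in the Zmiz1-titled libraries (mean ± SD, n = 3 per group). The share was 13.8% ± 1.01 in the Notch1-titled and 35.3% ± 0.665 in the combined libraries. By FPKM, Prkaa1 remained the higher alpha gene in each of the 12 libraries, by as little as 52.1% to 47.9% in Zmiz1-titled replicate 1. FPKM depends on the transcript lengths in the authors' annotation, which is not given, so an order this close is uncertain. The summed alpha level was 11.9 to 15.4 FPKM in the control and 17.4 to 23.6 FPKM in the Zmiz1-titled libraries, ranges that did not overlap, against 10.7 to 13.7 FPKM in the Notch1-titled and 13.9 to 16.8 FPKM in the combined libraries. These shares contain the values that chose Prkaa2 and are a description.

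**Figure D2:**
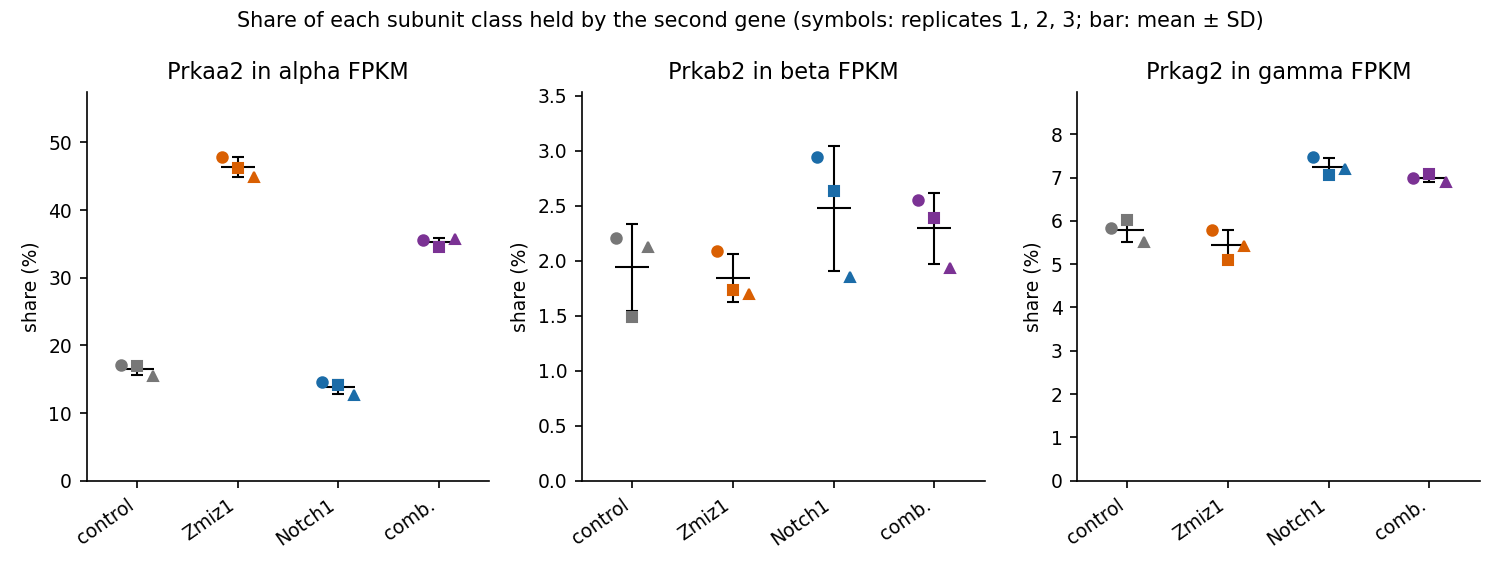
Share (percent, axis from 0) of the summed FPKM of each AMPK subunit class that came from Prkaa2, Prkab2 or Prkag2, by library and group, with the mean and SD of 3 libraries. The Prkaa2 share lies between 12.7% and 17.2% without and between 34.5% and 47.9% with the Zmiz1 vector, while the Prkab2 share stays at or under 2.94% and the Prkag2 share at or under 7.48%.

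The beta subunits came almost wholly from 1 gene. Prkab1 (chromosome 5, 116013586 to 116024508, minus strand), the beta 1 scaffold, ranged from 29.0 to 34.4 FPKM over the 12 libraries and overlapped between all groups. Prkab2 (chromosome 3, 97658193 to 97673812, plus strand), the beta 2 scaffold, ranged from 0.479 to 0.904 FPKM and supplied 1.49% to 2.94% of the beta FPKM. Its mean of 0.685 FPKM lay under the minimum of 1 FPKM for testing, so 9 of the 10 members passed that filter, and its differences come from the fit without a filter. Prkab2 was at 0.669, 0.479 and 0.680 FPKM in the control and 0.904, 0.851 and 0.648 FPKM in the Notch1-titled libraries. The groups overlapped, and the difference of 0.16 (0.014 to 0.31) did not pass (limma adjusted p = 0.274). The combined libraries (0.759, 0.812 and 0.657 FPKM) lay above the Zmiz1-titled ones (0.641, 0.556 and 0.561 FPKM), but this difference of 0.14 (-0.013 to 0.28) did not pass either (limma adjusted p = 0.442). At under 1 FPKM and with unknown depth, differences of this size in Prkab2 are imprecise.

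Among the gamma subunits, which bind the nucleotides, Prkag1 was the most abundant of all 10 members and Prkag2 the only one that passed the test in any comparison. Prkag1 (chromosome 15, 98812797 to 98831521, minus strand) ranged from 93.9 to 110 FPKM. Its groups overlapped, except that the Notch1-titled libraries (104.3 to 110.3 FPKM) lay above the control ones (102.3 to 102.8 FPKM). This difference of 0.076 (-0.059 to 0.21) did not pass (limma adjusted p = 0.575). Prkag3, the gamma 3 gene known from skeletal muscle, reached at most 0.0457 FPKM. Prkag2 (chromosome 5, 24862744 to 25100642, minus strand) was at 6.36, 6.56 and 5.99 FPKM in the control and 8.44, 8.36 and 8.56 FPKM in the Notch1-titled libraries. It was at 6.44, 5.03 and 6.25 FPKM in the Zmiz1-titled and 7.50, 8.14 and 7.82 FPKM in the combined libraries. Each of the 6 libraries with the Notch1 mutant, by title, lay above each of the 6 without it. For this and the other separations of libraries given here, the share of all tested genes that separate likewise was not counted.

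Prkag2 rose in Notch1-titled against control libraries by 0.37 (95% interval 0.20 to 0.55, limma adjusted p = 0.0205, higher in 3 of 3 libraries) and in combined against Zmiz1-titled libraries by 0.36 (0.18 to 0.53, adjusted p = 0.0311, higher in 3 of 3). The ratios of the means were 1.34 and 1.32. Both calls were close to the threshold. The first was lost without any 1 control library (adjusted p = 0.0669, 0.0563 and 0.0948 without replicates 1, 2 and 3) or any 1 Notch1-titled library (0.0516, 0.0583 and 0.0622). The second was lost without any 1 control library (0.0519, 0.0528 and 0.0505) or any 1 combined library (0.0668, 0.141 and 0.115), without the filter (0.0533) and in a fit of only the groups compared (0.187). The differences themselves stayed between 0.26 and 0.42 throughout.

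Zmiz1 had no called effect on Prkag2, which differed by -0.085 (-0.26 to 0.088) between Zmiz1-titled and control libraries and by -0.10 (-0.27 to 0.073) between combined and Notch1-titled libraries (limma adjusted p = 0.708 and 0.885). The first of these was 0.0093 without Zmiz1-titled replicate 2. In the second, the combined libraries (7.50 to 8.14 FPKM) all lay below the Notch1-titled ones (8.36 to 8.56 FPKM). Of the gamma FPKM, Prkag2 supplied 5.78% ± 0.263 in the control libraries, 5.43% ± 0.351 where only Zmiz1 was added by title, 7.24% ± 0.218 where only the Notch1 mutant was, and 6.995% ± 0.0963 with both (n = 3, SD). The deposited value is 1 per gene, so the 3 start sites of Prkag2 cannot be separated. The libraries kept no strand, and 3 annotated genes overlap the span of Prkag2 on the opposite strand. Prkag2os1 (4933426D04Rik in the files, 4282 bases of overlap) reached at most 0.103 FPKM, and Prkag2os2 (2391 bases) and 1500035N22Rik (12327 bases) were not matched to a value, so their part in the level of Prkag2 was not tested. The myeloid marker Itgam, an integrin chain also found outside the myeloid lineage, separated the same libraries as Prkag2 but in the opposite direction. Itgam was at 97.7 to 102 FPKM in the control, 91.3 to 100.01 in the Zmiz1-titled, 50.9 to 58.2 in the Notch1-titled and 59.1 to 61.5 FPKM in the combined libraries. The other 5 myeloid markers summed to at most 0.240 FPKM in any library.

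None of the genes of the LKB1 complex was called in any comparison. Stk11 (chromosome 10, 80115803 to 80130682, plus strand), which encodes the kinase LKB1, was at 42.9, 49.6 and 55.7 FPKM in control and 46.1, 55.2 and 54.5 FPKM in Zmiz1-titled libraries. It was at 45.7, 56.2 and 60.3 FPKM in Notch1-titled and 46.0, 58.6 and 55.8 FPKM in combined libraries. Replicate 1 was the lowest of its group in 4 of 4 groups, and the groups overlapped. Prkab1 was also lowest in replicate 1 of all 4 groups, and Cab39 highest. Cab39 (chromosome 1, 85793441 to 85851576, plus strand), which encodes the scaffold MO25 alpha, ranged from 61.2 to 73.8 FPKM. Strada (chromosome 11, 106163330 to 106202168, minus strand), the pseudokinase that LKB1 binds, ranged from 10.6 to 12.3 FPKM. Strada overlaps Ccdc47 (27.6 to 31.0 FPKM) by 4761 bases. Without strand information, overlaps on either strand make a level uncertain, and they also touch Prkaa1 (6815 bases), Prkag1 (3281), Prkab1 (2520), Prkab2 (782) and Stk11 (232 bases, with Dos at 1.86 to 2.62 FPKM), by annotated gene spans.

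Over Prkab1, Prkag1, Stk11, Strada and Cab39 together, the differences ran from -0.052 (Strada) to 0.082 (Cab39) between Zmiz1-titled and control libraries, and none of their 95% intervals reached beyond -0.22 or 0.37. Between combined and Notch1-titled libraries they ran from -0.059 to 0.049 (intervals within -0.31 and 0.28). Between Notch1-titled and control libraries they ran from -0.0025 to 0.13, with Stk11 at the upper end (intervals within -0.17 and 0.42). Between combined and Zmiz1-titled libraries they ran from 0.018 to 0.084 (intervals within -0.26 and 0.33). The widest intervals were those of Stk11.

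Camkk2 (chromosome 5, 122731170 to 122779409, minus strand), the calcium-dependent kinase upstream of AMPK, was the least abundant tested member. Its levels were 2.35, 2.11 and 2.41 FPKM in the control and 2.67, 3.22 and 2.68 FPKM in the Zmiz1-titled libraries. They were 2.76, 2.98 and 2.44 FPKM in the Notch1-titled and 3.01, 3.30 and 3.19 FPKM in the combined libraries. All 9 libraries with at least 1 of the genes added, by title, lay above the 3 controls, the closest at 2.44 against 2.41 FPKM. The combined libraries lay above the Notch1-titled ones, the closest at 3.01 against 2.98 FPKM. How often other genes separate in this way was not counted. Camkk2 did not pass in any comparison. Its difference was 0.23 (95% interval 0.042 to 0.41, limma adjusted p = 0.261) between Zmiz1-titled and control libraries, 0.18 (-0.0052 to 0.36, adjusted p = 0.280) between Notch1-titled and control libraries, 0.16 (-0.022 to 0.35, adjusted p = 0.659) between combined and Notch1-titled libraries and 0.11 (-0.070 to 0.30, adjusted p = 0.554) between combined and Zmiz1-titled libraries.

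**Figure D3:**
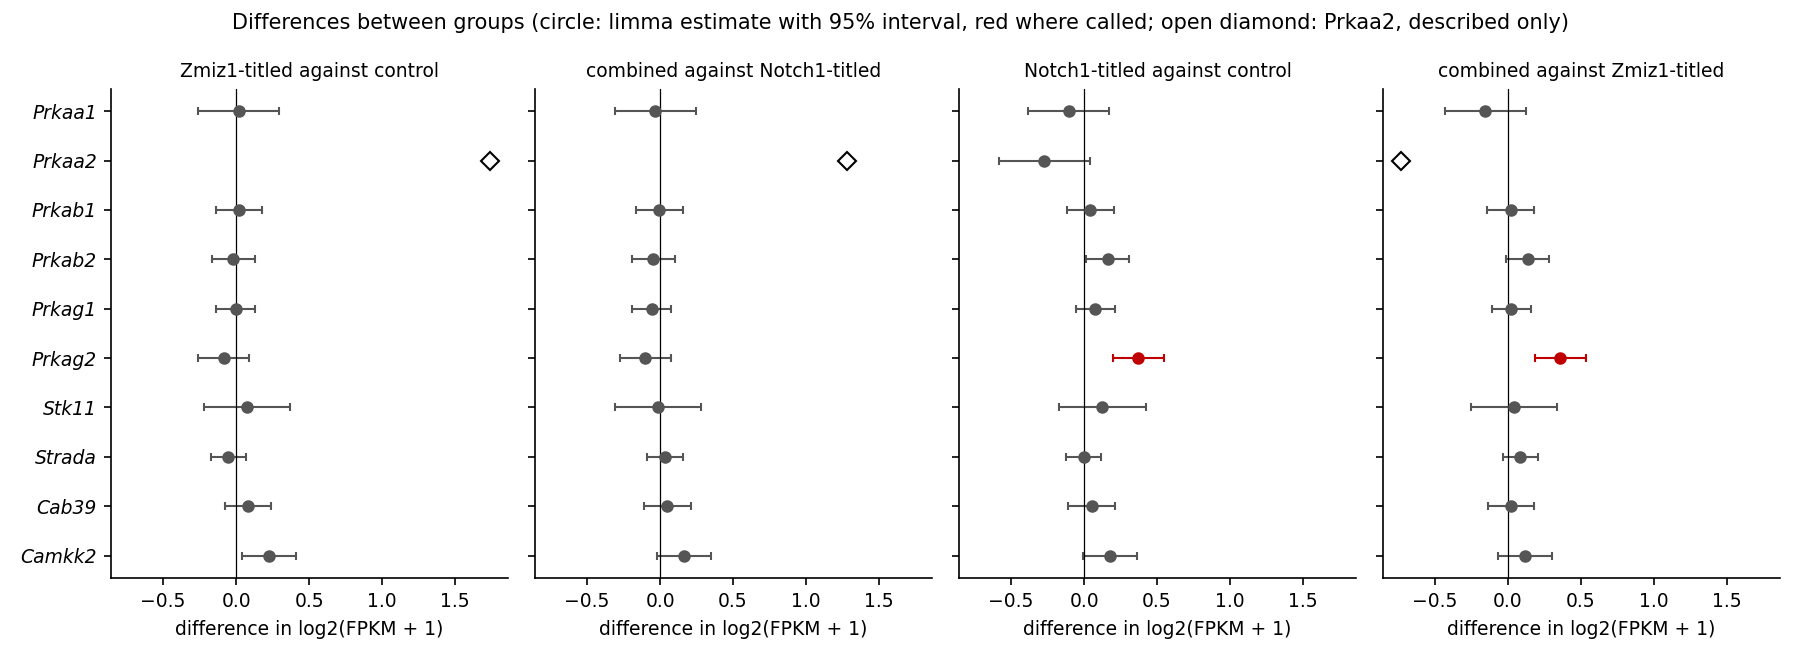
Difference in log2(FPKM + 1) of each gene in the 4 comparisons, with limma's 95% interval (circles, red where called) and open diamonds for Prkaa2 where it is only described; Prkab2 comes from the fit without a filter. Prkag2 is the 1 called member, in the 2 comparisons that add the Notch1 mutant (0.37 and 0.36), and Prkaa2 stands at 1.74 and 1.28 in the 2 that add Zmiz1.

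Counted together, 0 of 8 tested members other than Prkaa2 were called in Zmiz1-titled against control libraries (limma, adjusted p threshold 0.05), where 1.07% of all 10152 tested genes rose and 1.03% fell. At an unadjusted p under 0.05, 1 of the 8 (Camkk2) was higher and 0 were lower, against 6.09% and 6.72% of all genes. In combined against Notch1-titled libraries 0 of 8 were called, where 0.827% of all genes rose and 0.68% fell, and 0 of 8 passed unadjusted, against 9% of all genes in either direction. In Notch1-titled against control libraries 1 of 9 rose (Prkag2), where 3.19% of all genes rose and 2.3% fell. Prkaa2 is among these 9 and in their median below, though its choice used the same libraries. In combined against Zmiz1-titled libraries 1 of 8 rose (Prkag2), where 2.67% of all genes rose and 1.19% fell. For the interaction 0 of 8 were called, where 0.0197% of all genes were above and 0.0493% below additivity, and 0 of 8 passed unadjusted, against 3.27% of all genes in either direction. The members' median difference was 0.018, -0.0093, 0.052 and 0.030 in the 4 pairwise comparisons in this order, against 0.0017, -0.00032, 0.025 and 0.021 over all genes. A count of 1 among 8 or 9 genes does not set the members apart from these backgrounds. The comparisons share libraries, so the pairs of values for 1 gene are not independent of each other.

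In the order of mean level over the 12 libraries the members were Prkag1 (104 FPKM), Cab39 (67.5), Stk11 (52.2), Prkab1 (31.5), Strada (11.5), Prkaa1 (10.5), Prkag2 (7.12), Prkaa2 (4.70), Camkk2 (2.76) and Prkab2 (0.685). Strada and Prkaa1 overlapped over the libraries, as did Prkag2 and Prkaa2, and Prkaa2 and Camkk2. All other neighbours in this order had ranges that did not overlap. The mean levels of relatives outside the members were 12.2 FPKM for Stradb, 11.4 for Cab39l (MO25 beta), 14.9 for Camkk1 and 31.4 for Map3k7 (TAK1, another reported AMPK kinase). These relatives were not called in any comparison.

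The gene next to Prkaa2 moved in the same libraries. Ppap2b, now named Plpp3 (chromosome 4, 105157347 to 105232764, plus strand), encodes a lipid phosphate phosphatase, and its start site lies 47.457 kb from that of Prkaa2 on the opposite strand, so that the genes are transcribed away from each other. Its levels were 1.33, 1.33 and 1.79 FPKM in the control and 5.83, 9.83 and 5.60 FPKM in the Zmiz1-titled libraries. They were 1.22, 1.30 and 1.40 FPKM in the Notch1-titled and 3.19, 3.58 and 3.72 FPKM in the combined libraries. As for Prkaa2, the libraries with Zmiz1 lay above those without it, and the combined below the Zmiz1-titled ones.

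Ppap2b rose by 1.67 in Zmiz1-titled against control libraries (limma adjusted p = 3.69e-04, higher in 3 of 3) and by 0.96 in combined against Notch1-titled libraries (adjusted p = 0.0153, higher in 3 of 3). It fell by 0.81 in combined against Zmiz1-titled libraries (adjusted p = 0.0209, lower in 3 of 3) and differed by -0.10 between Notch1-titled and control libraries (adjusted p = 0.805). The interaction was -0.71 (adjusted p = 0.999). The second call was lost without Notch1-titled replicate 1 or 2 or any 1 combined library (adjusted p up to 0.0820), and the third without any 1 combined library (up to 0.0822) and in a fit of only the groups compared (0.132). Ppap2b was chosen after its values were known, for its place beside Prkaa2, and is no independent support for anything about the locus. Among the other genes with a value within 1 Mb of the Prkaa2 start, C8a and C8b were listed at 0 in all 12 libraries and 1700024P16Rik (Fyb2) reached at most 0.0391 FPKM.

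**Figure D4:**
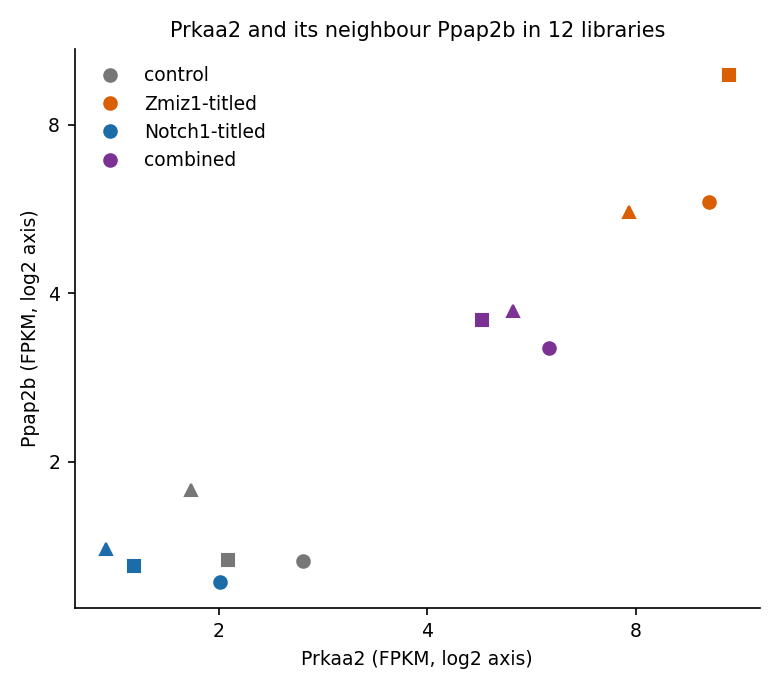
Prkaa2 (horizontal) against Ppap2b (vertical), both in FPKM on log2 axes, 1 symbol per library, with colour for the group and shape for the replicate. The Zmiz1-titled libraries lie at the upper right (at least 7.81 and 5.60 FPKM), the combined libraries between, and the control and Notch1-titled libraries at the lower left (at most 2.65 and 1.79 FPKM).

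The 5 genes whose level over the 12 libraries was most like that of Prkaa2, by Pearson correlation of log2(FPKM + 1) among the tested genes, were Ctsl, Wfs1, Ccr8, Cth and Osr2. Ctsl, a lysosomal protease, had r = 0.987 (Spearman rho = 0.916) and averaged 624 FPKM in the control, 1074 FPKM in the Zmiz1-titled, 582 FPKM in the Notch1-titled and 807 FPKM in the combined group. Wfs1, a membrane protein of the endoplasmic reticulum, had r = 0.982 (rho = 0.965) and averaged 0.666, 6.43, 0.393 and 2.97 FPKM in the same order. Ccr8, a chemokine receptor, had r = 0.981 (rho = 0.937) and averaged 0.478, 13.3, 0.243 and 3.78 FPKM. Cth, which makes cysteine from cystathionine, had r = 0.978 (rho = 0.958) with means of 5.71, 8.85, 5.01 and 6.99 FPKM. Osr2, a zinc finger transcription factor, had r = 0.970 (rho = 0.937) with means of 0.501, 2.103, 0.358 and 1.40 FPKM. All 5 shared the order of groups seen for Prkaa2, which follows from picking them by this correlation and is no separate result. Their levels and the size of their differences varied widely. Wfs1, Ccr8 and Osr2 averaged under 1 FPKM in the control and Notch1-titled groups. These 3 genes passed the filter only through the Zmiz1-titled and combined groups. Because the 12 libraries form 4 groups, these correlations describe the group pattern. Among the other tested members r with Prkaa2 ran from -0.51 (Prkag2) to 0.51 (Camkk2), and Camkk2 stood at rank 1229 of 10152 genes.

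Around AMPK, 8 lists of related genes held 65 genes in the files, of which 52 were tested. They were the other subunits and upstream kinases, AMPK-related kinases, AMPK substrates, AMPK regulators, the mTORC1 and TSC complex, the ULK1 complex, adenylate kinases, and calmodulin with the targets of CaMKK2. In Zmiz1-titled against control libraries 0 of 52 were called (limma), with a median of 0.037 against 0.0017 over all genes, and 2 of 52 had an unadjusted p under 0.05 (12.8% of all genes did). In combined against Notch1-titled libraries 2 of 52 rose (3.85%, against 0.827% of all genes) and 0 fell. In Notch1-titled against control libraries 0 rose and 2 fell (3.85%, against 2.3% of all genes). In combined against Zmiz1-titled libraries 0 rose and 2 fell (3.85%, against 1.19% of all genes). The medians were 0.017, -0.015 and -0.019 against -0.00032, 0.025 and 0.021 over all genes. The substrates, among them Acaca (acetyl-CoA carboxylase), Ulk1 (which starts autophagy) and Tsc2 (a brake on mTORC1), had 0 of 13 called in each comparison.

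The called list genes were adenylate kinases, a phosphatase subunit and a sestrin. Adenylate kinases interconvert AMP, ADP and ATP, the nucleotides that gamma subunits bind. Ak4, a mitochondrial adenylate kinase, was at 19.7, 17.7 and 18.2 FPKM in control and 12.6, 11.3 and 10.8 FPKM in Notch1-titled libraries, and fell by 0.64 (limma adjusted p = 0.00120, lower in 3 of 3). It was at 17.0, 19.2 and 15.5 FPKM in Zmiz1-titled and 12.2, 11.5 and 11.2 FPKM in combined libraries, and fell by 0.53 (adjusted p = 0.00502, lower in 3 of 3). Both calls held in every alternative run. Ak5, an adenylate kinase best known from brain, fell by 0.35 in Notch1-titled (21.1, 23.0 and 21.4 FPKM) against control libraries (25.8, 29.3 and 29.6 FPKM; adjusted p = 0.0246, lower in 3 of 3). It rose by 0.41 in combined (27.9, 29.7 and 30.6 FPKM) against Notch1-titled libraries (adjusted p = 0.0249, higher in 3 of 3). The first call was lost without control replicate 2 or 3 or Notch1-titled replicate 1 or 3 (adjusted p up to 0.111) and with only the groups compared (0.0549), and the second without any 1 library of the groups compared (up to 0.130).

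Ppp2cb, a catalytic subunit of protein phosphatase 2A, which can remove the activating phosphate of AMPK, was at 106, 95.2 and 110 FPKM in Notch1-titled and 163, 147 and 147 FPKM in combined libraries. It rose by 0.55 (limma adjusted p = 0.0448, higher in 3 of 3), and the call was lost without the filter, with the filter raised to 5 FPKM, and without any 1 of 10 libraries (adjusted p up to 0.184). Sesn1, a sestrin that acts upstream of AMPK and mTORC1 in stress, was at 69.4, 68.4 and 64.2 FPKM in Zmiz1-titled and 59.0, 56.9 and 55.6 FPKM in combined libraries. It fell by 0.23 (adjusted p = 0.0463, lower in 3 of 3), and the call was lost with the pseudocount of 0.1, the filter raised to 5 FPKM, only the groups compared, and without any 1 of 9 libraries (up to 0.183). Apart from Ak4, each called list gene therefore depended on single libraries. The matching comparisons of these genes were not called but had the same sign. Zmiz1-titled libraries differed from control by 0.33 for Ppp2cb and 0.21 for Ak5 (limma adjusted p = 0.240 and 0.266). Notch1-titled libraries differed from control by -0.19 for Sesn1 (limma adjusted p = 0.0888). Combined libraries differed from Zmiz1-titled ones by -0.15 for Ak5 (limma adjusted p = 0.382).

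**Figure D5:**
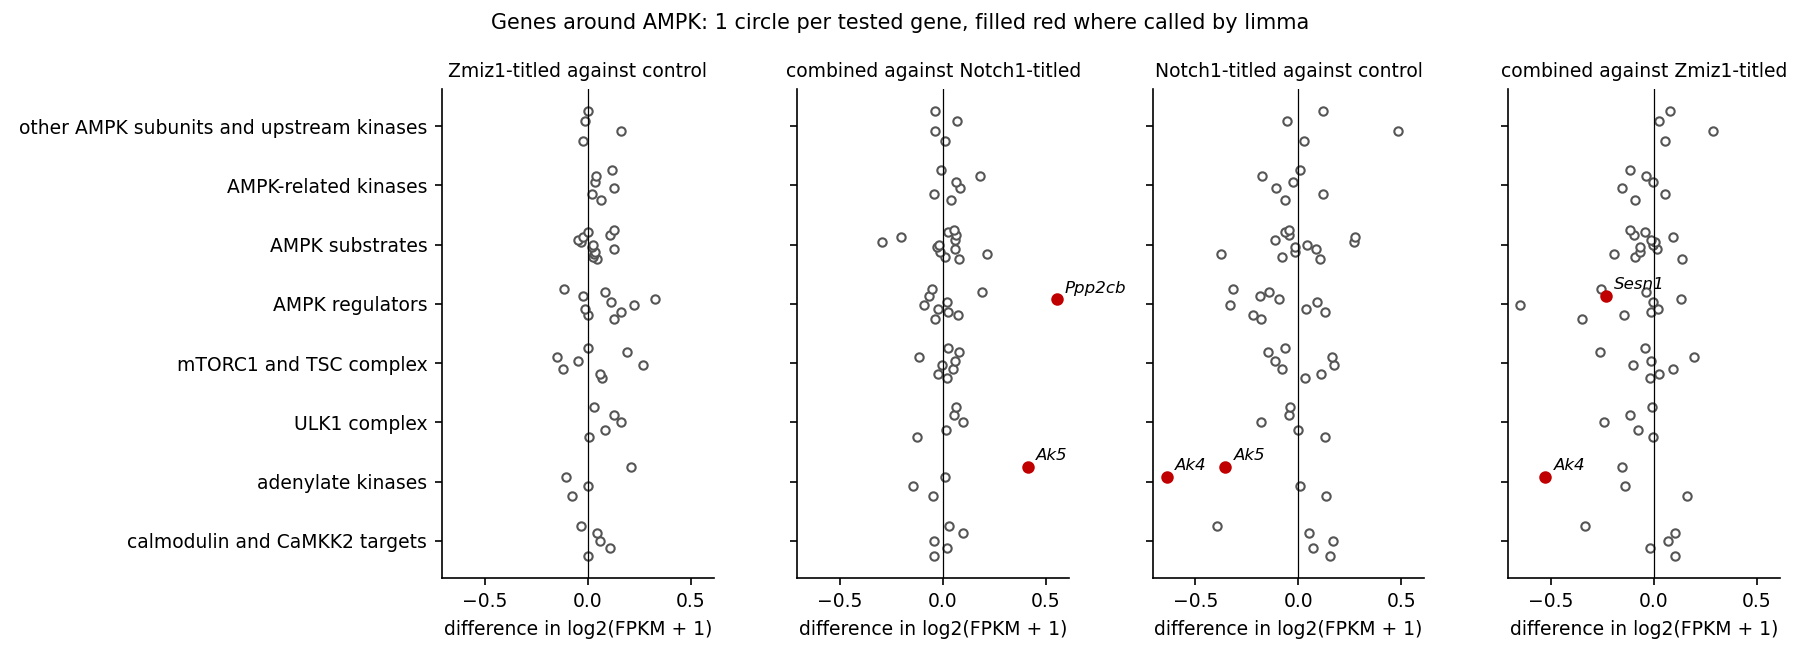
Difference in log2(FPKM + 1) of each tested gene (1 circle) of the 8 lists in the 4 comparisons, filled red and named where called by limma. Called genes are few, with Ak4 lowest at -0.64 and -0.53 in the 2 comparisons that add the Notch1 mutant, and none in Zmiz1-titled against control libraries.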

How the data were processed

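Poly(A) RNA libraries (TruSeq mRNA v2, which keeps no strand) of 12 samples were sequenced, per the labels. The deposited values are FPKM per gene symbol, which the authors made on mm10. The submitters' processing notes name Cuffdiff 2.1.1, Cufflinks, Bowtie2 2.1.0.0, TopHat2 2.0.9 and FastQC 0.10.0, without their order. Their annotation, settings and any scaling between libraries are not given in the sources used here. Low FPKM values did not fall on steps of whole reads (at most 8.42% of low genes on 1 step), so no counts were recovered.

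Values were used as log2(FPKM + 1). A single limma fit (3.58.1, under R 4.3.3) estimated the mean of each group, moderating variances along their trend with level. It covered the 10152 genes averaging 1 FPKM or more, gave two-sided tests, and was adjusted by Benjamini-Hochberg over all of them with a threshold of 0.05. "Rose", "fell" and "called" refer to this threshold. The 95% intervals and the interaction come from the same fit, which was tested on simulated data. Members and lists were chosen with earlier results of these data known. Named genes were all members, up to 4 called genes of each list with the largest difference, and the 5 tested genes correlating best with Prkaa2 (predicted genes and Zmiz1 passed over). Positions are GENCODE M21 (GRCm38); promoters are RefSeq (GRCm38.p6), matched for 10 of 10 members. Markers of T, B, myeloid, erythroid, fibroblast, skeletal muscle and liver cells were summed: among erythroid and muscle markers only Epor and Mylpf passed a mean of 1 FPKM, and fibroblast markers summed to at most 1.18 FPKM. Alternatives were a pseudocount of 0.1, no filter or a mean of 5 FPKM as the minimum, quantile normalization, median ratio scaling, a replicate block, only the groups compared, and each library left out. Figures used Python 3.11.15 and matplotlib 3.10.9.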

Additional observations from a re-analysis of the deposited data

How the results depend on the processing

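The count of members called was 0 in Zmiz1-titled against control libraries, in combined against Notch1-titled libraries and for the interaction in the limma fit and in every alternative. It was 1 in Notch1-titled against control libraries, with a range of 0 to 1 over the libraries left out. It was 1 in combined against Zmiz1-titled libraries, with a range of 0 to 1, and 0 without the filter and 0 with only the groups compared. The cause was not tested. Of 626 single values recomputed, 558 kept their direction and side of the threshold or moved by less than the replicate spread, 58 lost their call, 4 moved further and 6 turned sign. Those that turned sign were Prkaa1 and Prkag2 near 0: over the libraries left out Prkaa1 ran from -0.073 to 0.12 in Zmiz1-titled against control and from -0.097 to 0.067 in combined against Notch1-titled libraries, and Prkag2 from -0.14 to 0.0093 in Zmiz1-titled against control libraries. The labels do not say that a replicate number marks a shared batch, and 6 of 18 same-number pairs of libraries correlated above 0.1 (range -0.18 to 0.27), so the numbers were not used as pairs. The data hold a hint of pairing: 9 of 12 libraries correlated best with their own number, and the median was 0.043 for same-number and -0.021 for other pairs. With the replicate block the count of members called stayed at 0, 0, 1, 1 and 0, and calls over all genes went from 214 to 365, 153 to 260, 557 to 1059, 392 to 721 and 7 to 7, in the order of the comparisons above. The all-gene counts were 121 in Zmiz1-titled against control libraries and 101 in combined against Notch1-titled libraries with the filter at 5 FPKM. With only the groups compared they were 62, 105, 379 and 162, and the interaction had 18 calls with no filter, 3 with the pseudocount of 0.1 or the filter at 5 FPKM and 4 under quantile normalization. Leaving out single libraries gave 73 to 240, 74 to 302, 270 to 982, 182 to 503 and 5 to 8. The split of calls in Notch1-titled against control libraries was 324 up and 233 down, against 266 and 287 under median ratio scaling and 271 and 300 under quantile normalization. In combined against Zmiz1-titled libraries it was 271 and 121, against 228 and 159, and 240 and 158. The largest move of the median of all genes was 0.0302, under median ratio scaling. Without counts, depth limits Prkab2 and other genes under 1 FPKM to a description.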
